A study of Homo sapiens with 16 samples.

Results

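The comparison described here is inhibition of the N-myristoyltransferases (NMT) against vehicle in P493-6 cells at a medium level of MYC. P493-6 is an immortalised human B cell line whose MYC transgene is switched off by doxycycline and whose viral EBNA2 transcription factor works only when oestrogen is present. The 4 control libraries came from cells given DMSO, and the 4 treated libraries from cells given 100 nM IMP1088, which blocks NMT1 and NMT2. Treatment lasted 24 h in both arms. Cells of both arms had first been kept for 24 h with doxycycline (0.1 µg/mL) and β-estradiol (1 µM), so the controls share those additives with the treated cells. The rest of the series holds 8 libraries of the same design at high MYC, without doxycycline or estradiol, as 4 DMSO and 4 IMP1088. The line is a single engineered line, and the labels do not say whether replicates are separate cultures, so p-values measure the spread between these libraries. Members were the genes with a mean deposited normalized count of at least 10 over the 8 medium MYC libraries, which left 13777 of 58051 identifiers.

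N-myristoyltransferases add myristate, a saturated fatty acid, to a glycine at the start of proteins such as Src family kinases, ARF GTPases and G protein alpha subunits, which helps to hold them at membranes. Cells answer unfolded protein in the endoplasmic reticulum (ER) through the sensors IRE1, PERK and ATF6, which raise chaperones, export machinery and protein degradation. PERK is also a kinase of eIF2alpha. With its sister kinases it feeds the integrated stress response (ISR), in which the transcription factors ATF4 and CHOP drive genes for amino acid supply. In B cells the same ER programme is part of the path towards antibody-secreting plasma cells.

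The 8 libraries held between 8755296 and 12661195 reads. All 8 B cell markers examined were expressed, with a summed normalized count from 69510 to 73501 in controls and from 63223 to 64768 with the inhibitor, and 5 of the 8 were called lower. Summed T and NK cell markers ran from 202 to 266 in controls and from 174 to 199 with the inhibitor, and CD3D, CD8A and CD8B were at or near 0. The sum came mainly from TRAC, at 111 to 158 in controls and 109 to 136 with the inhibitor, and CD3E, at 50.1 to 75.3 and 30.3 to 39.7. Of the 4 T and NK cell markers that passed the filter, CD3E and CD3G were called lower by the limma test used for all genes, with a median log2 change of -0.62 over the 4. Myeloid markers summed to between 51.7 and 60.5 in controls and between 81.6 and 84.4 with the inhibitor, mainly from LYZ, which was called higher. Fibroblast and epithelial markers summed to between 225 and 256, and between 305 and 316, with DCN, LUM, KRT18 and KRT19 at 0. That sum came mainly from COL1A1, at 152 to 174 in controls and 188 to 217 with the inhibitor, and CDH1, at 46.8 to 64.8 and 67.9 to 94.4, and none of its 3 tested members was called. The part of these low signals in the results was not tested. In bulk RNA, fewer cells in a given state and less RNA per cell cannot be told apart.

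Among the 13777 genes, 3587 were called, which is 26.0% of those tested. A gene was called when limma on log2(normalized count + 1), fitted over all 16 libraries, gave a Benjamini-Hochberg adjusted p under 0.05. Of these, 1584 were higher with the inhibitor (11.5% of all tested) and 2003 were lower (14.5%). Changes of at least 2-fold were few, with 60 genes higher and 50 lower, together 0.798% of those tested. The median log2 change over all genes tested was -0.007. In 3844 genes (27.9%) the 4 treated libraries did not overlap the 4 controls, 1709 of them higher (12.4%) and 2135 lower (15.5%). Protein-coding genes were called lower more often than higher, with 1371 higher and 1926 lower of 11547. Of 1325 long non-coding RNAs, 147 were higher and 46 lower. Their share called higher was close to the 11.5% of all genes tested, and their share called lower was well under the 14.5%.

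**Figure D1:**
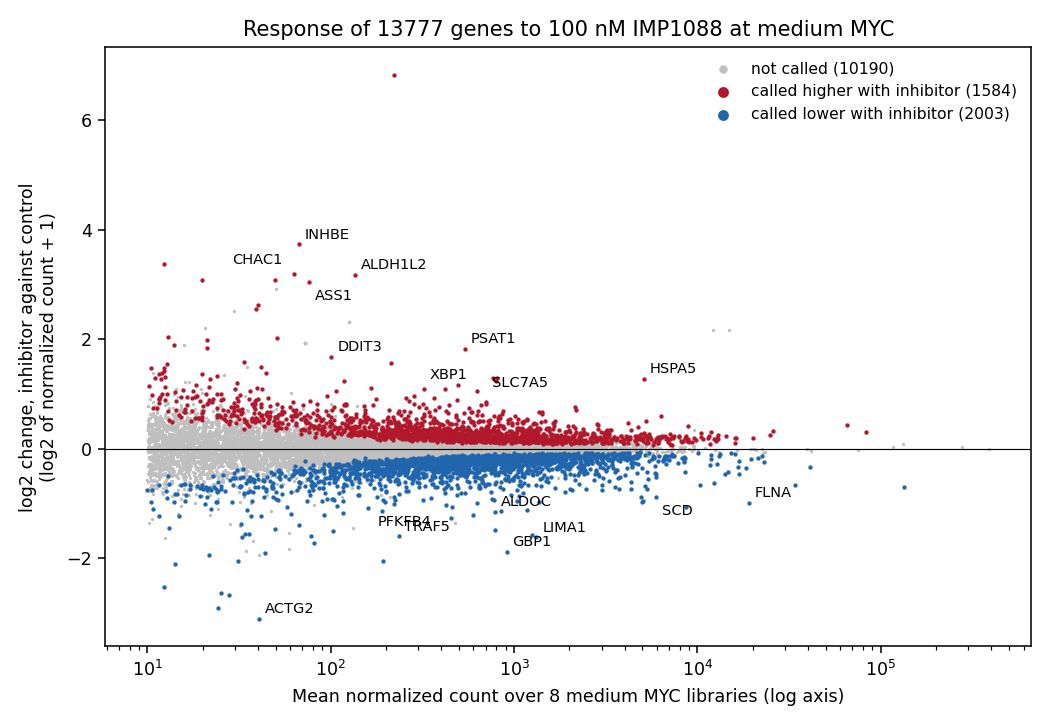
Each point is 1 of 13777 genes, with its mean normalized count over the 8 medium MYC libraries on a log axis and its log2 change with the inhibitor on the vertical axis. Red points were called higher (1584) and blue points lower (2003); the named genes at the top belong to amino acid metabolism and the stress responses, and those at the bottom include actin-linked and interferon-induced genes.

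The drug targets themselves did not pass the test. NMT1 (chr17:45051610-45109016), the more abundant enzyme in reads, stood at 1713, 1681, 1807 and 1717 normalized counts in control replicates 1 to 4 and at 1612, 1595, 1762 and 1679 with the inhibitor, and the arms overlapped (log2 change -0.058, limma adjusted p = 0.247). NMT2 (chr10:15102584-15168693) was near the filter, at 21.9, 12.8, 13.1 and 10.7 in controls and 24.5, 16.9, 27.2 and 18.1 with the inhibitor (log2 change 0.56, SE 0.35, adjusted p = 0.262). METAP1 and METAP2, which remove the leading methionine before myristate can be added, had log2 changes of -0.015 and 0.0079, neither called.

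MYC RNA rose. MYC (chr8:127735434-127741434), which includes reads of the repressible transgene as far as they map to the gene, had 959.6, 904, 1022 and 949 normalized counts in controls. With the inhibitor the values were 1400.4, 1444, 1328 and 1356. Every treated library lay above every control, a mean of 1.44-fold on the fitted scale (log2 change 0.53, SE 0.041, adjusted p = 3.45e-09). Of the 9 MYC network genes tested, 3 were called higher and 1 lower (11.5% and 14.5% over all genes tested). MXD1, a MAX partner that opposes MYC, rose by 0.48, and MLX, a related partner of the glucose-sensing MondoA branch, fell by 0.30 on the log2 scale.

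The kinases and phosphatase subunits that set eIF2alpha phosphorylation come first in the ISR. The list of 9 genes tested also held EIF2S1, which encodes eIF2alpha itself, and OMA1 and DELE1. Of the 9, 4 were called higher and 1 lower, all of them kinase or phosphatase subunit genes (11.5% and 14.5% over all genes tested). EIF2AK3 (chr2:88556741-88627576), which encodes PERK, rose from 478, 494, 499 and 502 in controls to 762, 741, 788 and 740.1 with the inhibitor. No treated value came near a control value (log2 change 0.62, SE 0.037, adjusted p = 5.76e-11). PPP1R15A, the stress-induced phosphatase subunit GADD34, rose by 0.65 log2 units and its constitutive relative PPP1R15B by 0.25. EIF2AK1, the heme-regulated kinase, rose by 0.17 log2 units, whereas EIF2AK2, the interferon-induced kinase PKR, fell by 0.17. EIF2AK4, the amino acid sensor GCN2, was not called (-0.045, adjusted p = 0.578).

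The ISR factor list held 9 tested genes and counts the feedback inhibitor TRIB3 with the transcription factors. Of these 9, 5 rose and 2 fell, TRIB3 being 1 of the latter, with a median log2 change of 0.34. ATF4 (chr22:39519695-39522685), the central factor, had 1522, 1514, 1623 and 1521 in controls and 1956, 1915, 2029 and 1940.03 with the inhibitor. The arms were separate and the rise was modest, at 1.27-fold (log2 change 0.34, SE 0.033, adjusted p = 7.45e-08). DDIT3 (chr12:57516588-57521737), which encodes CHOP, went from 52.2, 36.0, 55.1 and 49.2 to 142, 150.00, 165 and 157, about 3.18-fold higher (log2 change 1.67, SE 0.19, adjusted p = 9.13e-07). Its exons share bases with MARS and MBD6 on the opposite strand, and since use of strand in the counting is not given in the sources used here, their reads cannot be told apart. CEBPB rose by 1.08 log2 units and its partner CEBPG by 0.36. ATF3 rose by 0.49 log2 units (adjusted p = 0.0118), a call that was lost without inhibitor replicate 2 (adjusted p = 0.0504). Against that direction, the ATF4 target and feedback inhibitor TRIB3 fell by 0.35 log2 units, and ATF5 by 0.10, the latter a call lost in 11 of 21 alternatives. JDP2 (-0.19) and NFIL3 (0.059) were not called.

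Genes for serine, asparagine and one-carbon metabolism were mostly higher. Of 17 tested, 13 rose and 2 fell, and the median log2 change was 0.57. Promoter stretches of 3 ISR genes are printed first, because each holds a match to the C/EBP-ATF response element (CARE, searched as TGATGNAA on both strands, with its fixed letters in capitals), the element through which ATF4 is known to act. They are RefSeq sequences on GRCh38.p14, 5′ to 3′ along the gene, and end before the start that RefSeq annotates. By the GENCODE 29 gene positions given elsewhere in the text, CHAC1 begins further upstream, so its stretch lies inside that gene, and those of ASNS and IARS1 lie partly inside. ASNS is shown from chr7:97872409-97872557 on the minus strand, CHAC1 from chr15:40953221-40953370 on the plus strand, and IARS1 from chr9:92293698-92293797 on the minus strand.
ASNS: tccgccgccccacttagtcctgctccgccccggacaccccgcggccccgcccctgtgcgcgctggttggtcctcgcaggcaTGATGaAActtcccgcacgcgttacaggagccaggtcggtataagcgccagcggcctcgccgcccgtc
CHAC1: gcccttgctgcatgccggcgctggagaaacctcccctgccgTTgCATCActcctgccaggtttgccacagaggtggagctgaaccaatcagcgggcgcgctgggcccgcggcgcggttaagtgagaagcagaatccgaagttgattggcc
IARS1: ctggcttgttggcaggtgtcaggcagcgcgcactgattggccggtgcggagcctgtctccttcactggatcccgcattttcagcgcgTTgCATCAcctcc
Over the whole 300-base windows, from 250 before to 50 after the start, a match was found in 3 of 12 promoters of the enzyme list, 3 of 11 of the transporter list, 6 of 16 of the cytosolic tRNA synthetase list, 1 of 9 of the ISR factor list, 1 of 10 of the other ISR effectors and 0 of 24 of the ER chaperones. It was present in 32 of 1188 promoters of genes called higher and 24 of 1605 of those called lower, and in 3 of 32 at least 2-fold higher and 2 of 32 at least 2-fold lower. The share was 1.64% over the 9949 tested genes with a promoter in the table and 3.67% over all 27305 promoters. A match is a description of letters, and no match says only that they are not in this window.

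PSAT1 (chr9:78297143-78330093), an aminotransferase of serine synthesis, stood at 245, 256, 211 and 242 in the controls and 843, 842, 853 and 819.8 with the inhibitor, 3.52-fold higher (log2 change 1.82, SE 0.058, adjusted p = 3.95e-15). ASNS (chr7:97852118-97872542), asparagine synthetase, rose from 262, 262, 265 and 281 to 583, 605, 558 and 536 (log2 change 1.09, SE 0.052, adjusted p = 1.44e-12). In both genes the spread within an arm was small beside the gap between arms. ALDH1L2, a mitochondrial folate enzyme, and ASS1, which makes argininosuccinate, started low. ALDH1L2 (chr12:105019784-105084577) had 21.9, 26.5, 35.0 and 22.2 in controls against 224, 260.3, 255 and 235 (log2 change 3.18, adjusted p = 1.3e-13). ASS1 (chr9:130444929-130501274) had 13.6, 15.4, 19.3 and 14.8 against 139, 128, 152 and 127 (log2 change 3.05, adjusted p = 5.66e-15). The enzymes that fell were MTHFD1, the cytosolic trifunctional folate enzyme, by 0.28, and SHMT1, cytosolic serine hydroxymethyltransferase, by 0.28.

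Amino acid transport and tRNA charging moved in the same direction with smaller changes. Of 12 transporter genes tested, 8 rose and 0 fell (median 0.34). SLC7A5 (chr16:87830023-87869488), the light chain of the leucine exchanger, had 486, 468, 559 and 495 in controls and 825, 906, 948 and 926 with the inhibitor (log2 change 0.84, SE 0.050, adjusted p = 4.37e-11). Its heavy chain SLC3A2 rose by 0.55 log2 units, the glutamine carrier SLC1A5 by 0.80, and the glycine carrier SLC6A9, low in controls at a mean of 10.3 ± 4.15 (SD, n = 4), by 3.07. Of 20 cytosolic aminoacyl-tRNA synthetases, 11 rose and 0 fell, with a median of 0.10. GARS1 (glycine) rose by 0.47 log2 units, EPRS1 (glutamate and proline) by 0.37, IARS1 (isoleucine) by 0.33 and WARS1 (tryptophan) by 0.27. Among 17 mitochondrial synthetases, 1 rose and 4 fell, with a median of -0.040, beside 11.5% higher and 14.5% lower over all genes tested.

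Other ISR effectors rose in 9 of 13 cases and fell in 1. CHAC1 (chr15:40952962-40956519), which degrades glutathione, had 9.39, 17.1, 13.1 and 8.21 in controls and 96.7, 124, 111 and 126 with the inhibitor, so the arms were far apart (log2 change 3.20, SE 0.47, adjusted p = 2.47e-05). KLHL24 rose by 0.97 log2 units, SESN2, a leucine-linked brake on mTORC1, by 0.67, and the tRNA exporter XPOT by 0.47. DDIT4, another mTORC1 brake that also answers to hypoxia, fell by 0.66 log2 units (adjusted p = 8.19e-11). From the separate list of lysosome and autophagy genes, of which 8 of 29 rose and 3 fell, the autophagy receptor SQSTM1 rose by 0.47 log2 units. The shares over all genes tested were 11.5% higher and 14.5% lower.

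**Figure D2:**
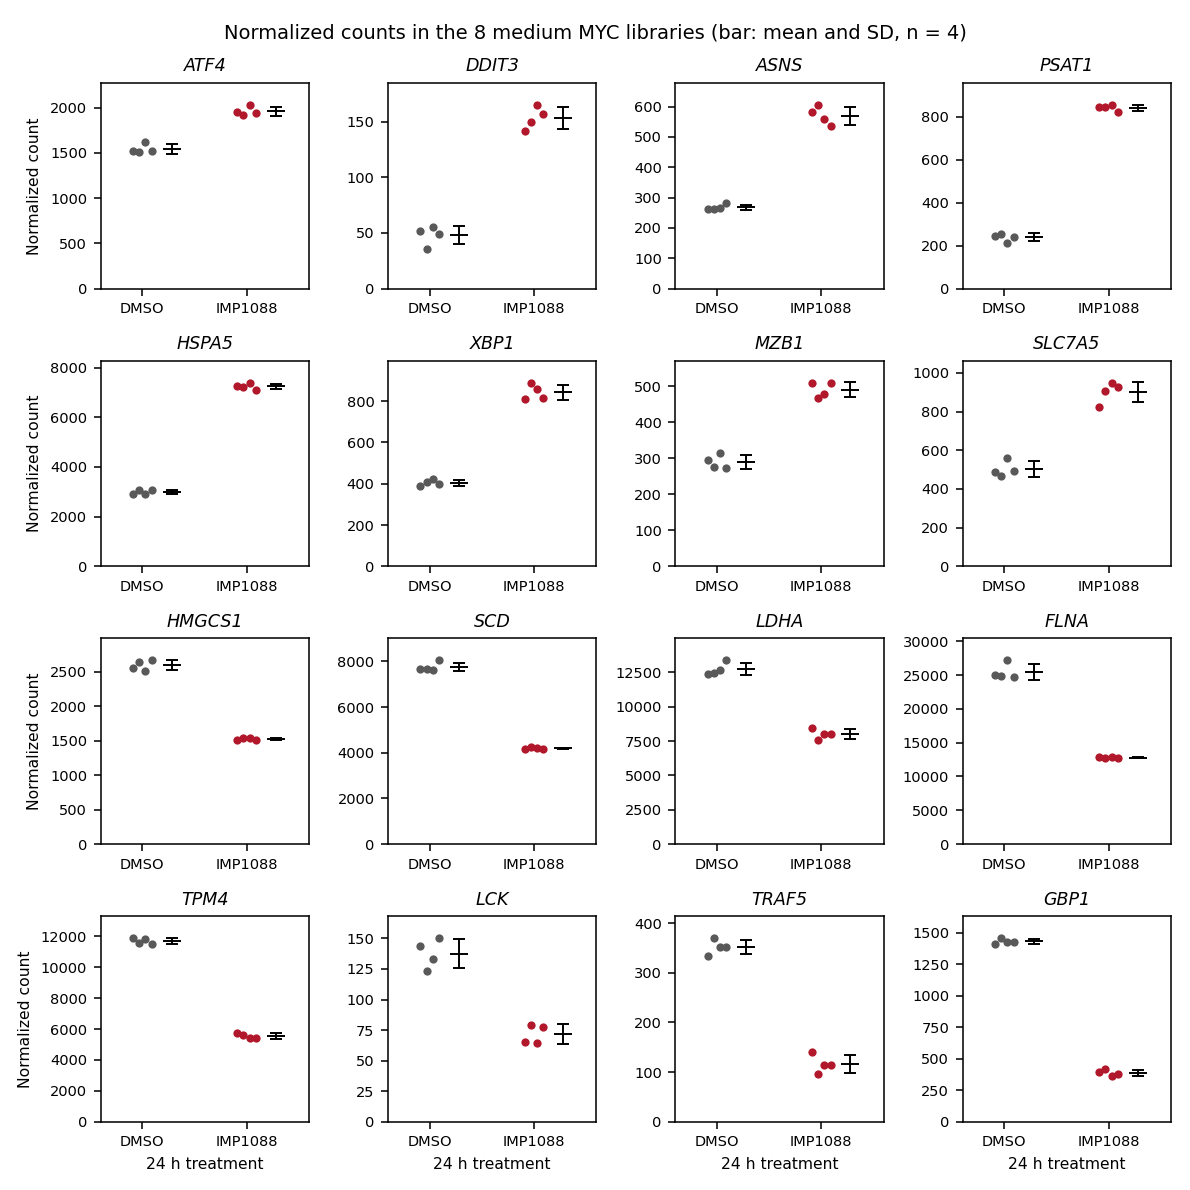
Normalized counts of 16 genes in the 8 medium MYC libraries, 1 panel a gene, with DMSO in grey, IMP1088 in red and a bar for the mean and SD (n = 4); each vertical axis starts at 0. In every panel the 4 treated libraries lie wholly above the 4 controls (ATF4 to SLC7A5) or wholly below them (HMGCS1 to GBP1).

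Genes of the unfolded protein response were higher at each step of the pathway. Promoter stretches are shown for 4 of them, because each holds a match to the ER stress response element (ERSE, searched as CCAAT and CCACG with 9 bases between them on both strands, fixed letters in capitals), a site known for ATF6. They are RefSeq sequences on GRCh38.p14 read along the gene. By the GENCODE 29 positions the stretches of HSP90B1 and CRELD2 lie inside the gene, that of XBP1 partly inside, and that of HSPA5 before it. XBP1 is shown from chr22:28800570-28800689 on the minus strand, HSPA5 from chr9:125241344-125241492 on the minus strand, HSP90B1 from chr12:103930190-103930359 on the plus strand, and CRELD2 from chr22:49918485-49918633 on the plus strand.
XBP1: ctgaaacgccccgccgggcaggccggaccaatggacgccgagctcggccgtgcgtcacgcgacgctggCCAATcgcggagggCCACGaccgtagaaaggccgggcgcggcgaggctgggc
HSPA5: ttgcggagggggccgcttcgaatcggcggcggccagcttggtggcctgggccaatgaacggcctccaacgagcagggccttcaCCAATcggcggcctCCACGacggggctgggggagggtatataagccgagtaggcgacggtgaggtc
HSP90B1: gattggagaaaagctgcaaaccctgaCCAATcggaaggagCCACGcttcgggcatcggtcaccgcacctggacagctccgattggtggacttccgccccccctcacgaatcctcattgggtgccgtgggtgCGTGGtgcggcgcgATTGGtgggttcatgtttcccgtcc
CRELD2: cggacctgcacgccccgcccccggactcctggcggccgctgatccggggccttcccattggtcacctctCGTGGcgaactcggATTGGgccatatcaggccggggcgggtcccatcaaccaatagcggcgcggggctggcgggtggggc
HSP90B1 held 2 matches, on opposite strands. HSP90B1 and CRELD2 were chosen for printing after their values were seen. In the whole windows the element was found in 6 of 24 promoters of ER chaperones and foldases, against 0.141% of tested genes. It was present in 9 of 1188 promoters of genes called higher and in 0 of 1605 of genes called lower.

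Of 9 sensor genes tested, 7 rose and 0 fell. XBP1 (chr22:28794555-28800597), whose messenger RNA is spliced by IRE1, had 387, 409, 423 and 400.5 in controls and 811, 889, 857 and 815 with the inhibitor. This was 2.08-fold higher with no overlap (log2 change 1.06, SE 0.038, adjusted p = 1.38e-14), and gene-level counts do not separate spliced from unspliced forms. ATF6 rose by 0.24 log2 units, the ATF6-like factors CREB3L2 by 0.38 and CREB3 by 0.28, and the protease MBTPS1, which cuts ATF6, by 0.15. ERN1, which encodes IRE1, rose by 0.19 log2 units (adjusted p = 0.0433), a call lost in 9 of 21 alternatives. ATF6B (0.034) and the second protease MBTPS2 (0.12) were not called.

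Most ER chaperone genes rose. Of 25 ER chaperones and foldases, 21 rose and 1 fell, with a median log2 change of 0.59. HSPA5 (chr9:125234853-125241330), the Hsp70 chaperone BiP, had 2891, 3058, 2922 and 3081 in controls and 7245, 7231, 7386 and 7115 with the inhibitor. The 2.42-fold rise was many times the spread within either arm (log2 change 1.28, SE 0.027, adjusted p = 5.27e-18). DNAJB9, a BiP co-chaperone, rose by 1.56 log2 units, MANF by 1.10, CRELD2 by 1.10 and SDF2L1 by 1.05. HYOU1, a BiP exchange factor, rose by 0.76 log2 units, calreticulin (CALR) by 0.59 and the ER Hsp90 HSP90B1 by 0.51. FKBP14, a prolyl isomerase of the ER outside that list, rose by 1.24 log2 units. ERO1A, an ER oxidase that hypoxia also induces, was the list member that fell, by 0.23.

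Degradation, import and export followed. Of 19 genes of ER-associated degradation, 11 rose and 0 fell. HERPUD1 (chr16:56932048-56944863), a scaffold of the degradation complex, had 464, 482, 469 and 468 in controls and 1195, 1078, 1154 and 1158 with the inhibitor (log2 change 1.28, SE 0.045, adjusted p = 1.13e-14). Its promoter is shown from chr16:56931912-56932041 on the plus strand (RefSeq, GRCh38.p14), since it holds a CARE match, in capitals.
HERPUD1: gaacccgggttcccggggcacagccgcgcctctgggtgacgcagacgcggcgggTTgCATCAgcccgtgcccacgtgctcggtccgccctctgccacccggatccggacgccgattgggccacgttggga
The lectin ERLEC1 rose by 0.65 log2 units, SEL1L by 0.49 and the mannosidase-like EDEM1 by 0.34. Of 22 translocation and signal peptidase genes, 19 rose and 0 fell. The pore subunit SEC61A1 rose by 0.70 log2 units, SSR3 by 0.67 and the peptidase subunit SEC11C by 0.57. COPII coat genes, which carry cargo out of the ER, rose in 10 of 12 cases. SEC24D (chr4:118722823-118838683), a cargo adaptor of that coat, had 453, 429, 463 and 432 in controls and 1069.5, 1088, 1073 and 1115 with the inhibitor (log2 change 1.29, SE 0.047, adjusted p = 1.63e-14). SEC31A rose by 0.41 log2 units and SAR1A by 0.42. In the COPI coat and its ARF exchange factors, 8 of 13 rose and 0 fell, among them COPA by 0.35 and COPG1 by 0.38.

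Plasma cell genes rose in 10 of 12 cases, with a median of 0.50, and 0 fell. This list shares XBP1 with the sensors and SEC11C with the translocation and signal peptidase genes. MZB1 (chr5:139387480-139390081), an ER protein of antibody-secreting cells, had 295, 276, 313 and 274 in controls and 509, 466, 479 and 507 with the inhibitor (log2 change 0.76, SE 0.047, adjusted p = 8.4e-11). JCHAIN, which joins antibody multimers, rose by 0.69 log2 units, and the transcription factor IRF4 by 0.30. Of 18 B cell transcription factors, 6 rose and 4 fell (11.5% and 14.5% over all genes tested). BACH2, which holds cells back from plasma cell fate, rose by 0.81 log2 units, Aiolos (IKZF3) rose by 0.19, and ID3, an inhibitor of E proteins, fell by 0.43.

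**Figure D3:**
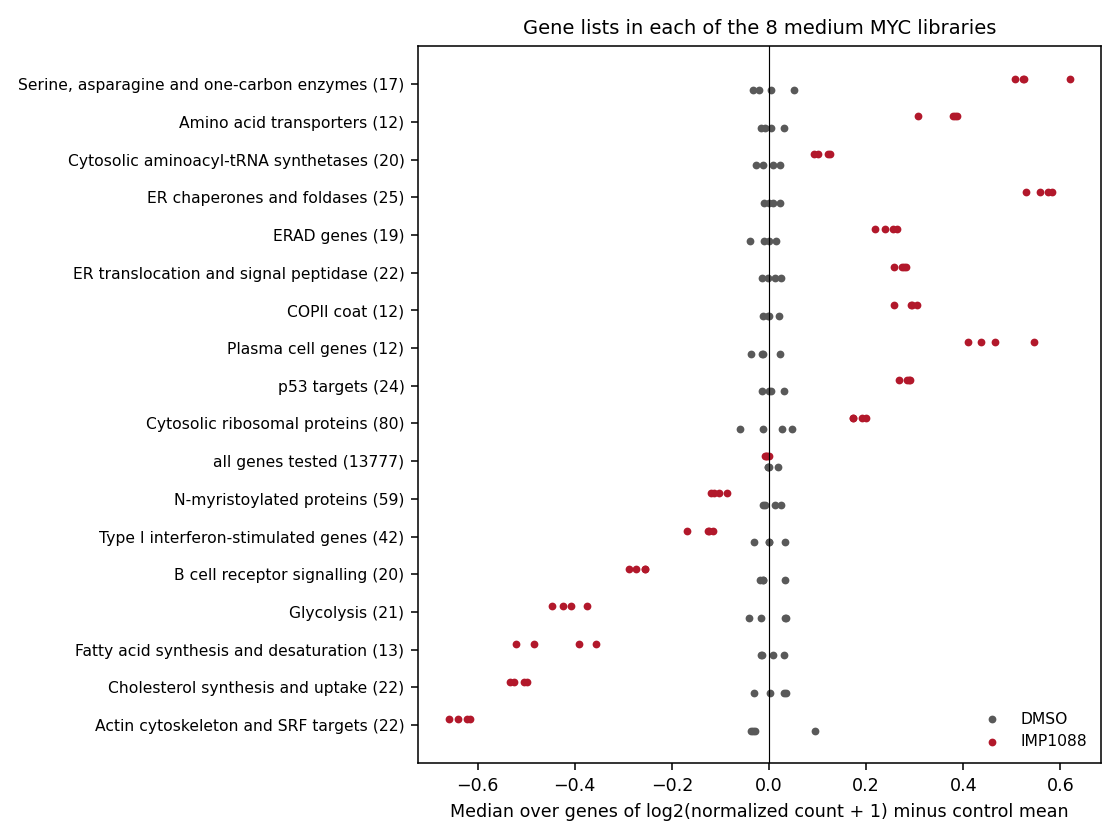
For each gene list (number of tested genes in brackets), points give the median over its genes of log2(normalized count + 1) minus the gene's control mean, 1 point for each of the 4 DMSO (grey) and 4 IMP1088 (red) libraries at medium MYC. The ER chaperone medians lie between 0.53 and 0.58 with the inhibitor and the cholesterol medians between -0.53 and -0.50, while all genes tested stay within -0.0074 and 0.018.

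The known substrates of NMT were described at the RNA level only. Of 59 genes for N-myristoylated proteins tested, 4 rose and 26 fell, with a median of -0.13. Those that rose all act at the Golgi. ARF4 (chr3:57571363-57598220), a GTPase of coat recruitment, had 635, 681, 608 and 699 in controls and 961, 1019, 959.9 and 1015 with the inhibitor (log2 change 0.59, SE 0.055, adjusted p = 5.2e-08). ARL1 rose by 0.45 log2 units, the stacking protein GORASP2 by 0.28 and ARF1 by 0.19. Among those that fell, CYB5R3 (chr22:42617840-42649568), a cytochrome b5 reductase, had 997, 1026, 1124 and 954 in controls and 519.6, 538, 547 and 530.4 with the inhibitor (log2 change -0.94, SE 0.058, adjusted p = 7.94e-11). DEGS1, a ceramide desaturase, fell by 0.51 log2 units and the G protein subunit GNAI2 by 0.34. The Src family kinases are part of the substrate class, and 6 of 8 fell. LCK (chr1:32251239-32286165) had 144, 123, 133 and 150.2 in controls and 65.2, 79.5, 64.8 and 77.6 with the inhibitor (log2 change -0.93, SE 0.12, adjusted p = 5.02e-06). SRC fell by 0.48 log2 units and FGR by 0.28. Whether encoded proteins begin with methionine and glycine was not analysed here.

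Lipid synthesis was lower almost throughout. Of 22 genes of cholesterol synthesis and uptake tested, 21 fell and 0 rose, with a median of -0.48. HMGCS1 (chr5:43289395-43313512), an early enzyme of the mevalonate pathway, had 2553, 2649, 2515 and 2666 in controls and 1506, 1538, 1542 and 1517 with the inhibitor. All treated values were below all controls (log2 change -0.77, SE 0.033, adjusted p = 2.93e-13). MVD, the decarboxylase that makes isopentenyl pyrophosphate, fell by 0.82 log2 units, and squalene synthase FDFT1 by 0.58. Fatty acid synthesis and desaturation behaved alike in count, with 12 of 13 lower and a median of -0.48. SCD (chr10:100347124-100364834), stearoyl-CoA desaturase, had 7686, 7669, 7628 and 8039.7 in controls and 4166, 4243, 4190.4 and 4165 with the inhibitor, 1.85-fold lower (log2 change -0.89, SE 0.025, adjusted p = 4.67e-16). FADS2 fell by 0.74 log2 units; its exons share bases with FEN1 and FADS1. ACLY, which supplies cytosolic acetyl-CoA, fell by 0.52 log2 units.

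The regulators of these genes moved less. Of 12 genes that control the sterol regulatory element-binding proteins (SREBP), 2 rose and 4 fell (11.5% and 14.5% over all genes tested). SREBF1 (chr17:17810399-17837002), the factor tied to fatty acid synthesis, had 785, 777, 853 and 773 in controls and 537, 564, 528 and 509 with the inhibitor (log2 change -0.58, SE 0.053, adjusted p = 4.37e-08). SREBF2, tied to cholesterol synthesis, fell by 0.20 log2 units, INSIG1, which retains SREBP in the ER, by 0.26, and the LDL receptor ligase MYLIP by 0.34. The sterol exporter ABCA1 rose by 0.31 log2 units. The escort protein SCAP was not called (0.072, adjusted p = 0.452), but was called higher without control replicate 3 (adjusted p = 0.0333) and with a GC correction (0.16, adjusted p = 0.00845).

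Glycolytic genes fell in 17 of 21 cases and rose in 1, with a median of -0.44. LDHA (chr11:18394388-18408425), lactate dehydrogenase A, had 12377, 12488, 12702 and 13369.6 in controls and 8461, 7604, 8001 and 7996 with the inhibitor. The arms did not overlap (log2 change -0.67, SE 0.033, adjusted p = 2.77e-12). ALDOC, an aldolase, fell by 1.15 log2 units, PGK1 by 0.55 and enolase ENO1 by 0.44. Among 16 hypoxia-linked genes tested, 10 fell and 1 rose. PFKFB4 (chr3:48517684-48562015), which sets fructose 2,6-bisphosphate, had 628, 611, 635 and 688 in controls and 269, 239, 277 and 278 with the inhibitor (log2 change -1.27, SE 0.070, adjusted p = 1.41e-11). PDK1, which shuts pyruvate dehydrogenase, fell by 0.66 log2 units, and the mitophagy receptor BNIP3 by 0.49.

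**Figure D4:**
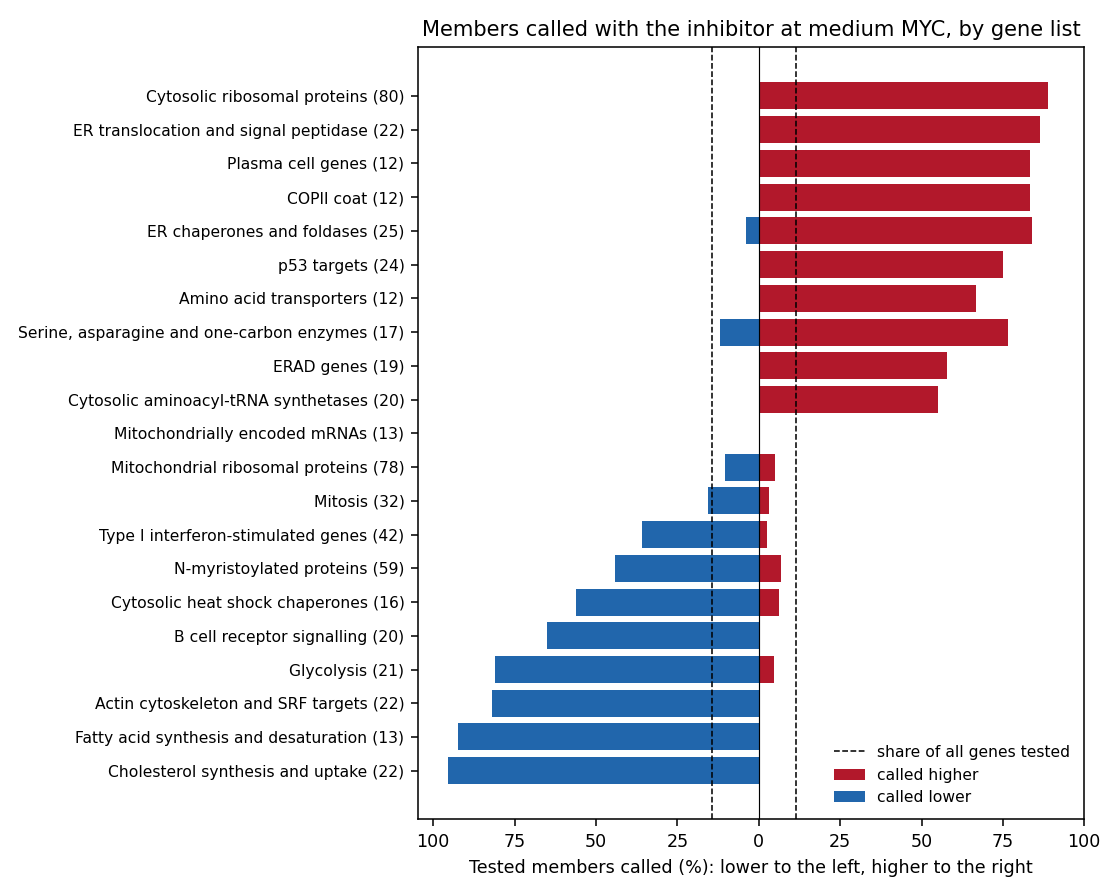
Share of each list's tested members (number in brackets) called higher (red, to the right) or lower (blue, to the left) with the inhibitor at medium MYC, in percent. Dashed lines give the shares over all 13777 genes, 11.5% higher and 14.5% lower; the ribosomal protein, ER translocation and ER chaperone lists extend furthest to the right and the lipid, actin and glycolysis lists furthest to the left, and no mitochondrially encoded mRNA was called.

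Actin genes and targets of serum response factor (SRF) had the lowest median of the lists shown, -0.63, with 18 of 22 lower and 0 higher. FLNA (chrX:154348524-154374638), which crosslinks actin filaments, had 25054, 24826, 27167 and 24772 in controls and 12870.3, 12680.5, 12844 and 12699 with the inhibitor (log2 change -0.99, SE 0.034, adjusted p = 6.88e-15). TPM4 (chr19:16067021-16103005), a tropomyosin, had 11878, 11593, 11846 and 11504 in controls and 5747, 5633, 5426 and 5393 with the inhibitor (log2 change -1.08, SE 0.028, adjusted p = 1.39e-16). Every treated value of either gene lay below every control value. LIMA1 (chr12:50175788-50283546), an actin-binding LIM protein, fell further, from 2051, 2028, 1965 and 1946 to 663, 603, 656 and 667 (log2 change -1.63, adjusted p = 4.43e-14). ZYX, a focal adhesion protein, fell by 1.57 log2 units and CORO1A, an actin regulator of blood cells, by 0.97. Outside that list, the LIM domain genes PDLIM7 and TGFB1I1 fell by 1.49 log2 units and 1.40. SRF itself and the smooth muscle actin ACTG2, which is not on the list, were chosen after their values were seen. SRF (chr6:43171299-43181507) had 1651, 1527, 1707 and 1519 in controls and 709.5, 717, 778 and 736 with the inhibitor (log2 change -1.12, adjusted p = 4.06e-12). ACTG2 went from 83.4, 70.2, 70.0 and 70.6 to 6.99, 7.95, 7.31 and 8.07 (log2 change -3.12, adjusted p = 1.28e-08). Its treated values were under the filter mean of 10, so it passed the filter through the controls.

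Signalling genes of B cells were mostly lower or not called. Of 20 B cell receptor genes, 13 fell and 0 rose, with a median of -0.30. PTPN6 (chr12:6946468-6961316), the phosphatase SHP-1, had 3009, 3080.4, 3285 and 2998 in controls and 1857, 1906, 1795 and 1818 with the inhibitor (log2 change -0.75, SE 0.043, adjusted p = 3.04e-11). The inhibitory receptor CD22 fell by 0.33 log2 units, PLCG2 by 0.35 and the adaptor PIK3AP1 by 0.28. In the CD40 and TRAF family, 6 of 13 fell and 0 rose. TRAF5 (chr1:211326615-211374946), a signalling adaptor of that family, had 334, 369.8, 353 and 352 in controls and 141, 95.4, 114 and 114 with the inhibitor, 3.04-fold lower (log2 change -1.61, SE 0.14, adjusted p = 1.3e-08). TRAF3IP3 fell by 0.64 log2 units. Of 22 NF-kappaB subunits, inhibitors and targets, 4 rose and 3 fell, the latter near the 14.5% of all genes tested that fell. Chemokine genes and receptors were called higher in 4 and lower in 2 of 15 cases, with a median of 0.27. In 9 of the 15 every treated library lay above every control, and in 2 below (12.4% and 15.5% of all genes tested). CCR1 changed by -1.60 and CXCR4 by 0.21 on the log2 scale, both called.

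Interferon-linked genes fell in part. Of 42 type I interferon-stimulated genes, 15 fell and 1 rose, with a median of -0.13. ISG15 (chr1:1001138-1014540), a ubiquitin-like modifier, had 1616, 1625, 1823 and 1563 in controls and 1341, 1424, 1245 and 1377 with the inhibitor (log2 change -0.30, SE 0.052, adjusted p = 0.000149). MX1, an antiviral GTPase, fell by 0.21 log2 units, OAS2 by 0.23 and PARP9 by 0.32. From the separate list of guanylate-binding proteins, GBP1 (chr1:89052319-89065360) fell much further, from 1412, 1456, 1429 and 1427 to 394, 417, 359 and 376, 3.70-fold lower (log2 change -1.89, SE 0.18, adjusted p = 7.24e-08). Class II antigen presentation genes fell in 5 of 13 cases and class I genes in 7 of 14, with 1 class I gene higher.

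Growth and survival genes gave a mixed picture. Of 24 p53 targets, 18 rose and 0 fell, with a median of 0.27. MDM2 (chr12:68808176-68850686), which degrades p53, had 3528, 3508, 3221 and 3726 in controls and 5019, 4856, 4677 and 4758 with the inhibitor (log2 change 0.47, SE 0.041, adjusted p = 1.8e-08). The ribonucleotide reductase subunit RRM2B rose by 0.51 log2 units and the nuclease AEN by 0.33. CDKN1A, the cell cycle inhibitor p21, rose by 0.13 log2 units (adjusted p = 0.0440), with overlapping arms and a call lost in 8 of 21 alternatives. BCL2 family genes rose in 6 and fell in 1 of 15 cases. The anti-apoptotic BCL2 rose by 0.47 log2 units and MCL1 by 0.24, the pro-apoptotic NOXA gene PMAIP1 rose by 0.57, and BID fell by 0.33. Of 32 mitosis genes, 1 rose and 5 fell, and of 29 replication genes, 2 rose and 10 fell. Over all genes tested, 11.5% rose and 14.5% fell, so the share of mitosis genes that fell was near the general one. The proliferation antigen MKI67 fell by 0.10 log2 units, a call lost under quantile scaling. Among G1 regulators, 3 of 15 rose, CDKN1B (p27) by 0.70, and 3 fell, CCND3 by 0.33.

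Ribosomal protein genes rose together and by little. Of 80 tested, 71 rose and 0 fell, with a median of 0.18, though many have near-identical pseudogenes that could share reads. RPL4 (chr15:66498015-66524532) had 10365, 10512, 11094 and 10577 in controls and 12489, 12666, 12609.7 and 12422 with the inhibitor, and RPL5 rose by 0.20 log2 units. Ribosome biogenesis genes rose in 13 and fell in 1 of 34 cases. Mitochondrial lists differed in how many members were called. None of 13 mitochondrially encoded mRNAs was called, and of 78 mitochondrial ribosomal proteins 4 rose and 8 fell. Of 37 nuclear complex I subunits 7 fell and 0 rose, and of 43 nuclear genes of complexes II to V 10 fell and 1 rose. Over all genes tested, 14.5% fell and 11.5% rose. NDUFA13, a complex I subunit, fell by 0.69 log2 units, and NDUFB5 by 0.37. Cytosolic heat shock chaperones, in contrast to those of the ER, rose in 1 and fell in 9 of 16 cases, and HSPA8 fell by 0.29 log2 units and HSPB1 fell by 0.45. NRF2 antioxidant genes fell in 5 of 18 and rose in 0, and NQO1, a quinone reductase, fell by 0.70 log2 units.

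The single gene with the largest rise and separate arms was INHBE (chr12:57452323-57459280), a subunit of the hormone activin E. It had 7.30, 11.1, 6.13 and 9.85 in controls and 105, 135, 138 and 121 with the inhibitor, 13.3-fold higher on the fitted scale (log2 change 3.73, SE 0.19, adjusted p = 4.44e-12). Its control values lay near or under the filter mean of 10. It therefore passed that filter, and the mean of 50 for naming, through the treated libraries, and its rank rests on low control counts. PIM2 (chrX:48913182-48919024), a survival kinase of B and plasma cells, had 451, 504, 459 and 479 in controls and 1118, 1150.3, 1132 and 1087 with the inhibitor (log2 change 1.24, adjusted p = 3.95e-15). On the other side, the surface glycoprotein CD248 fell by 1.73 log2 units, and CC2D2A, a protein of the ciliary base, by 1.22.

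The response was then compared with that of the same line at high MYC, where 3659 of the same 13777 genes were called (26.6%). These genes were filtered on the medium MYC libraries, so genes expressed mainly at high MYC can be missing from the comparison of the MYC settings. MYC level, doxycycline and estradiol change together between these settings and cannot be told apart. The test was that of the difference itself, the log2 change at medium MYC minus that at high MYC. It called 1198 genes (8.70%), of which 738 had the higher value at medium MYC (5.36%) and 460 the lower (3.34%). Many stress genes were in the first group. Of the 17 serine, asparagine and one-carbon enzymes 12 differed, all with the higher value at medium MYC, and the median change at high MYC was -0.068. Of 25 ER chaperones 20 differed that way, with a high MYC median of -0.0069, as did 9 of 12 transporters and 7 of 12 plasma cell genes.

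HSPA5 had a mean of 5019.6 ± 147 in the high MYC controls and 5152 ± 42.5 with the inhibitor there (SD, n = 4), a log2 change of 0.038. The difference from its response at medium MYC was 1.24 (SE 0.039, adjusted p = 1.01e-14). PSAT1 went from 622 ± 46.0 to 542 ± 20.2 at high MYC, a difference in response of 2.01 (SE 0.083, adjusted p = 1.1e-12). ATF4 had a log2 change of -0.080 there, and its difference was 0.42 (adjusted p = 2.59e-06). For DDIT3 the difference was 1.41 (adjusted p = 0.00156), for XBP1 0.85 (adjusted p = 8.68e-10) and for INHBE 4.24 (adjusted p = 1e-09). CHAC1 changed by 1.18 at high MYC, and its difference of 2.02 did not pass (SE 0.67, adjusted p = 0.0668). SEC24D and EIF2AK3 rose at both levels, by 0.73 and 0.26 at high MYC, with differences of 0.56 and 0.36, both called.

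Lower values at medium MYC were found for 13 of 22 cholesterol genes, 5 of 13 fatty acid genes, 10 of 21 glycolytic genes and 8 of 22 actin and SRF genes. The difference went the other way for 1 glycolytic gene and 2 actin and SRF genes. These lists also fell at high MYC, where 16 cholesterol, 8 fatty acid, 15 glycolytic and 18 actin and SRF genes were called lower. Their median log2 changes there were -0.27, -0.24, -0.20 and -0.40. SCD changed by -0.16 at high MYC and differed by -0.72 (SE 0.036, adjusted p = 1.89e-11). The difference was -0.64 for FLNA (adjusted p = 1.05e-08) and -0.87 for SRF (adjusted p = 2.64e-07). TRAF5 had the lowest difference of the genes named by rule, -1.55 (SE 0.19, adjusted p = 1.3e-05). F2RL3, a thrombin receptor, and CDK5R1, an activator of CDK5, fell at medium MYC by 1.07 and 1.03 and rose at high MYC by 0.46 and 0.49. PTPN3 rose at both levels, by 0.58 at medium and 2.05 at high MYC. ARHGEF17 fell by 1.07 log2 units at medium MYC and HIC1, a repressor, by 0.90, against -0.050 and 0.032 at high MYC.

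Interferon and proliferation genes differed the other way. At high MYC 33 of 42 interferon-stimulated genes were called lower (16.3% of all genes tested were), and 25 had the higher value at medium MYC in the test of the difference. MX1 changed by -0.63 at high MYC against -0.21 at medium MYC (difference 0.42, adjusted p = 4.47e-07). Of 32 mitosis genes, 25 were called lower at high MYC and 16 differed in response. Several changes were close at both levels. MYC changed by 0.59 at high MYC, with a difference of -0.061 (SE 0.058, adjusted p = 0.606), GBP1 by -1.86 and MDM2 by 0.40. A p that misses the threshold does not show that these responses were equal.

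**Figure D5:**
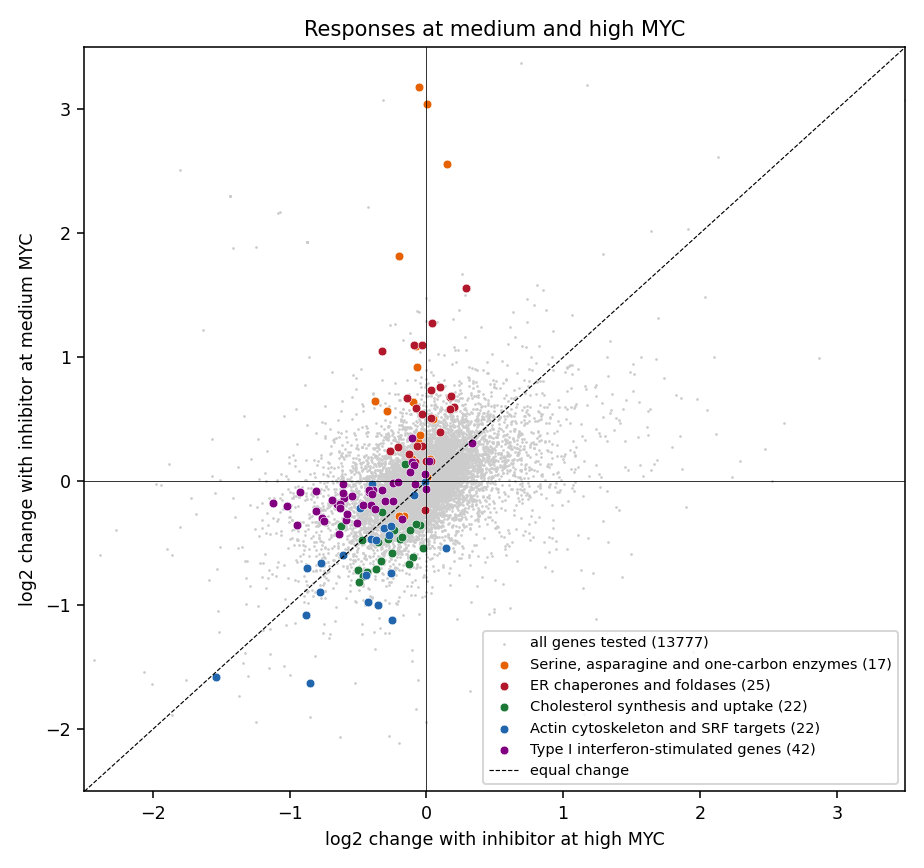
Log2 change with the inhibitor at high MYC (horizontal) against medium MYC (vertical) for all 13777 genes in grey, with 5 lists in colour and a dashed line of equal change; 10 genes lie outside the axes. Serine and one-carbon enzymes and ER chaperones stand above the line near 0 on the horizontal axis, cholesterol genes mostly below it, and interferon-stimulated genes to the left of it.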

How the data were processed

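RNA from P493-6 cells was sequenced in 4 groups of 4 libraries. The authors deposited 1 table of normalized counts, a non-negative expression signal, for 58051 Ensembl identifiers. The submitters' processing notes name STAR 2.5.2a, RSEM 1.2.31, DESeq2 1.16.1 and GRCh38, without their roles; the annotation release and use of strand are not given in the sources used here. All values were whole multiples of a library's smallest value (tolerance 1e-08), so whole reads could be recovered as 1 per smallest value, and the steps were those of median-of-ratios size factors. An independent check accepted this for 14 of 16 columns; for inhibitor replicates 2 and 4 at medium MYC, whose size factors lie within 1% of 1, it could not tell and the recovery rests on the calculation described. Depth ran from 8755296 to 13858534 reads over the 16 libraries, and read-based precision covers counting error only.

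Genes were kept where the 8 medium MYC libraries averaged 10 or more, which gave 13777. On these, log2 of the deposited normalized count plus 1 was tested with limma (version 3.58.1, R 4.3.3). One fit of all 16 libraries with 4 group means and a mean trend gave the change at each MYC level, their difference and Benjamini-Hochberg adjusted p-values over all genes, two-sided. On simulated counts for 13603 genes it recovered 61.9% of genes changed by 0.5 on the log2 scale, 98.5% at 1 and 100% at 2, with 8 unchanged genes called. The simulation gave every gene the same dispersion, changed only 63, 66 and 65 genes by these sizes, and set no response at high MYC. The data differ in all of these respects, so its rates need not hold for them. Symbols matched 56948 of the 58051 identifiers. Positions are those of GENCODE 29 on GRCh38, found for 57447 of the 58051. Of the 156 genes named in the results, cell type markers aside, 74 share exonic bases with another annotated gene.

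The members and gene lists were chosen with earlier results of these data known, and lists are described by counts and medians without a test. Some lists share members, such as EIF2AK3, which is on the eIF2alpha list and the ER sensor list. Genes were named by rule: the 12 higher and 12 lower that changed most, if called, averaging 50 or more and with arms that do not overlap; MYC, NMT1, NMT2, sensors, ISR factors and SREBP control; up to 4 called members in each direction of other lists; and the 8 largest differences in response each way. Not every such gene is printed, and 6 genes outside the rule (METAP1, METAP2, HSP90B1, CRELD2, SRF, ACTG2) and, in the closing section, RNVU1-7, MT-RNR1 and MT-RNR2 were named after their values were seen. Results for some genes named by the rule are not reported here. Replicate numbers did not pair the libraries. Alternatives were other scalings, pseudocounts of 0.1 and 10, other filters, no trend, only the 8 libraries, a replicate block, edgeR 4.0.16 (quasi-likelihood) and DESeq2 1.42.0 on recovered reads, leaving out each library, and a GC correction added after the data were seen.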

Additional observations from a re-analysis of the deposited data

Results flagged for a closer look

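The difference in response between medium and high MYC passed limma's test (adjusted p under 0.05) for 36 of the 38 named genes whose difference was reported. Some of these genes were named because their difference was among the largest, so this share was partly set by the choice of genes. It does not stand for all genes tested, for which the much lower share is given in the Results. Values are log2 changes at medium minus high MYC. Of ISR and amino acid genes, the value at medium MYC was the higher for INHBE by 4.24, ALDH1L2 by 3.24, ASS1 by 3.04, PSAT1 by 2.01, DDIT3 by 1.41, ASNS by 1.16, SLC7A5 by 0.88, ATF4 by 0.42 and EIF2AK3 by 0.36. Among genes of the ER it was higher for DNAJB9 by 1.27, SDF2L1 by 1.37, HSPA5 by 1.24, HERPUD1 by 1.21, MANF by 1.13, XBP1 by 0.85 and SEC24D by 0.56, and among B cell and interferon genes for PIM2 by 0.85, MZB1 by 0.80, ISG15 by 0.47, MX1 by 0.42 and PTPN6 by 0.38. Negative differences were found, among lipid and glycolytic genes, for SCD at -0.72, LDHA at -0.42 and SREBF1 at -0.36, and among actin and SRF genes for SRF at -0.87, LIMA1 at -0.77, FLNA at -0.64 and TPM4 at -0.19. They were also found for LCK at -0.73, TRAF5 at -1.55, CC2D2A at -0.92, F2RL3 at -1.53, CDK5R1 at -1.53, PTPN3 at -1.47, ARHGEF17 at -1.02 and HIC1 at -0.93. For PTPN6, MX1 and ISG15 a positive value means a smaller fall at medium MYC, and for PTPN3 a negative value a smaller rise.

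In 17 of 314 groups of 4 libraries, a single library stood apart from the other 3 by Dixon's criterion, where about 16 are expected by chance. Control replicate 3 accounted for 8 of them. In control replicate 1 the highest normalized count of the 4 was 83.4 for ACTG2. In control replicate 2 the highest normalized count of the 4 was 226 for MBTPS2. In control replicate 3 the highest normalized count of the 4 was 1623 for ATF4, 33.3 for CEBPB, 176 for JDP2, 853 for SREBF1, 626 for SCAP, 27167 for FLNA, 7052 for CORO1A and 3567 for HSPB1. In control replicate 4 the highest normalized count of the 4 was 281 for ASNS, 8039.7 for SCD and 6639.7 for PGK1. In inhibitor replicate 2 the lowest normalized count of the 4 was 603 for LIMA1. In inhibitor replicate 3 the lowest normalized count of the 4 was 47.0 for CC2D2A. In inhibitor replicate 4 the highest normalized count of the 4 was 2779.96 for ATF5 and 183 for FKBP14. Without control replicate 3, 3262 genes were called.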

How the results depend on the processing

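The main count of 3587 called genes lay between 3172 and 3291 when any 1 of the 8 libraries was left out, and between 3310 and 3949 under the 13 other alternatives. edgeR's quasi-likelihood test on recovered reads called 3854 genes, 3447 of them shared with limma, and DESeq2 called 3327, 3154 of them shared; for 2 of the 16 columns the recovery of reads was not independently checked. A fit of the 8 medium MYC libraries alone called 3717 genes, 3299 of them shared. With the replicate number as a block, 3421 genes were called (1516 higher, 1905 lower, 112 at least 2-fold) and 1033 differed in response; libraries with the same number had correlations of their deviations from -0.077 to 0.037, so the numbers do not pair them. More genes were called lower than higher except under equal library totals (1937 higher, 1656 lower) and quantile scaling (2019 higher, 1930 lower). The number changed at least 2-fold, 110, ran from 108 to 123 without 1 library, but was 38 with a filter at a mean of 100, 67 with a pseudocount of 10, 314 without a filter and 297 under quantile scaling; the filters change how many genes are tested (9543 at a mean of 100, 27068 without a filter), and for the pseudocount and quantile scaling the cause was not tested. The difference in response was called for between 1021 and 1346 genes without 1 library and between 1018 and 1639 otherwise, the highest with the GC correction. Of 146 named genes called at medium MYC, 140 kept their call in all 21 alternatives. ATF3, ATF5, CDKN1A, ERN1, MKI67 and TGFB1I1 lost their call in at least 1. Many of the named genes were chosen for a large change or a small p in the main fit, so this share does not stand for all called genes. TGFB1I1 had an adjusted p of 0.179 with a pseudocount of 0.1, and MKI67 changed sign under quantile scaling, at 0.0016 (adjusted p = 0.972). All 36 reported differences in response that passed the test did so in every alternative that could give one. Some of these genes were named for a large difference, so this result does not stand for all called differences. None of the 42 lists with a median beyond 0.05 changed the sign of that median. Its size was less stable: over the lists, the set of all genes tested and the alternatives, 121 medians moved by at least the spread of such medians between libraries of an arm. Of the simulated sizes of change, 0.5 on the log2 scale was the one missed most often.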

Other observations

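The largest fitted change of all belonged to a spliceosomal RNA gene, RNVU1-7, named after its values were seen. It was listed at 0 in all 4 controls and at 712, 0, 718 and 334 with the inhibitor (limma log2 change 6.84, adjusted p = 0.0168). One treated library was also at 0, so the arms overlap. With 0 in every control, this gene passed the filter through treated libraries only. The mitochondrial ribosomal RNAs varied widely within arms. MT-RNR1 had 793, 2069, 729 and 23558 normalized counts in controls and 40223, 2884, 22772 and 4454 with the inhibitor, and was not called (adjusted p = 0.266). MT-RNR2 followed the same libraries, at 1013, 2578, 892 and 28642 in controls and 49161, 3595, 27622 and 5547 with the inhibitor (adjusted p = 0.271). The 13 mitochondrially encoded mRNAs took from 3.14% to 3.42% of reads in the same 8 libraries.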
